A study of Mus musculus with 4 samples.

Results

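Monocytes and macrophages of mouse bone marrow were chosen by measured values, the unique molecular identifiers (UMIs, 1 per captured RNA molecule) of marker genes in each cell barcode, and 685 of 19134 kept barcodes were members. Kept barcodes had at least 500 genes and at most 10% mitochondrial UMIs. A member had at least 1 UMI of Csf1r, the receptor for the growth factor that maintains these cells, and at least 5 UMIs summed over Ly6c2, Ms4a6c, Ccr2, C1qa, Adgre1 and Cd68. It also had under 3% of its UMIs in the neutrophil genes S100a8 and S100a9, under 20 UMIs of the granule genes Elane, Mpo and Prtn3, under 2 of Siglech (plasmacytoid dendritic cells), none of Cdh5 (endothelium) and under 20 of Cxcl12 (marrow stroma). The 337 members with at least 10 UMIs of C1qa, C1qb and C1qc, the 3 subunits of complement component C1q, are called C1q-high, and the other 348 are called C1q-low. All genes of the cells bear on how they were selected, so what sets the members or either subset apart is a description and carries no test.

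The study measured the RNA of single cells from tibial marrow of C57Bl/6JCrl mice, with or without irradiation and with or without the deletion, in 4 libraries of 1 group each. Control mice carried the genotype Vegfc flox/flox, and Vegfc-deleted mice carried RosaCreERT2;Vegfc flox/flox, in which a tamoxifen-inducible Cre recombinase is made from a locus active in most cell types, so that the deletion is not limited to 1 cell type. Tamoxifen was given as 5 intragastric doses at 7 to 8 weeks of age; the labels name it for 3 of the 4 samples in one place and for both genotypes in another. Where mice were irradiated, a total body dose of 4 Gy followed 2 weeks later, and all marrow was taken 7 days after that, from mice given an intravenous antibody to VE-cadherin. It was dissociated with dispase II, collagenase I and DNase I. Live cells without CD45, Ter119 or lineage markers on their surface were sorted, each library pooling 3 non-irradiated or 2 irradiated mice (another place in the labels gives 3 irradiated mice per genotype). Values given for all 4 libraries follow 1 order: control and then Vegfc-deleted without irradiation, control and then Vegfc-deleted with irradiation.

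Classical monocytes, marked in mice by Ly6c2 and the chemokine receptor Ccr2, leave the marrow for the blood and can become non-classical monocytes, which depend on the nuclear receptor Nr4a1, or macrophages and osteoclasts in tissue. Resident marrow macrophages sit within islands of maturing red cells, swallow expelled nuclei and worn red cells, recycle the iron of haem and hold blood progenitors through VCAM1. Osteoclasts form from the same Csf1r-bearing lineage by fusion and dissolve bone. Type I interferons and interferon-gamma switch on a shared set of antiviral genes in these cells through STAT and IRF factors.

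The label was checked against genes that the rule did not use. Lyz2 (lysozyme) stood at 12859, 19165, 8163 and 7483 UMIs per 1000000 (CPM, summed over the cells of a library) in the members, against 358, 977, 389 and 3115 in the other kept barcodes. Csf1r, which the rule requires, was 451, 321, 441 and 434 CPM in members and 4.12, 6.73, 4.18 and 21.0 in the others. Of the listed markers, Ly6c2 was higher in members than in the other barcodes of 3 libraries, but in the irradiated Vegfc-deleted library it was 683 CPM in members and 847 CPM in the others. The gene for the CD45 protein that the sort excludes, Ptprc, had a UMI in 92.6%, 96.5%, 87.2% and 94.8% of the members, so these are cells whose RNA is that of CD45-bearing cells within a CD45-negative gate. Vegfc, the targeted gene, had 1, 0, 0 and 0 UMIs in all members of a library, so the deletion could not be checked in them; in the other barcodes it stood at 34.6, 1.99, 19.4 and 0.715 CPM. Whether these 3′ tags lie in the deleted part was not given in the sources used here.

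Members had a median of 12251, 12309, 18344.5 and 14502 UMIs, and their counts summed to 419334, 1528087, 1677371 and 7845193 UMIs. With 1 library per group there is no replicate and no test of a condition. Every interval below is an exact 95% interval for counting error only, and says nothing of the spread between mice. Those of gene ratios and list medians treat each UMI as an independent draw, and so also leave out the spread between cells. Libraries shared 13 to 117 barcodes per pair, and 8 of the 685 members carried a barcode that another library also held. Scrublet, a doublet caller, marked 1, 4, 1 and 7 members, which were kept. In summed counts, fewer transcribing cells and less RNA per cell cannot be told apart.

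With irradiation, most interferon-response genes were higher in Vegfc-deleted than in control C1q-high cells, as described further on. The promoters of 3 of them are shown here because the letters that interferon-regulated factors are known to bind can be read in them. The windows run from 250 bases before to 50 bases after the gene's start in RefSeq, build GRCm38.p6, and are printed 5′ to 3′ on the gene's strand. Capitals mark matches to GAAANNGAA, searched on both strands with overlapping matches kept. Isg15, a ubiquitin-like protein, lies at chr4:156200769-156201068 on the minus strand, and its 3 overlapping matches start 78, 72 and 66 bases before the gene's start. Bst2, which tethers budding virus to the cell surface, lies at chr8:71537423-71537722 on the minus strand, with 2 matches that start 130 and 124 bases before it. Ifit1, which binds foreign RNA, lies at chr19:34640639-34640938 on the plus strand, with 3 matches on the opposite strand at 109, 103 and 84 bases before it.
Isg15: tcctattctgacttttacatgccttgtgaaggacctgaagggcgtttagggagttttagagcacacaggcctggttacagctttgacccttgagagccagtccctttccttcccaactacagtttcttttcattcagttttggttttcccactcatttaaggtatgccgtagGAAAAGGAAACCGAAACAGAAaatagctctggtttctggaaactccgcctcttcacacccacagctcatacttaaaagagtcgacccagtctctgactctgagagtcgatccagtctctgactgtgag
Bst2: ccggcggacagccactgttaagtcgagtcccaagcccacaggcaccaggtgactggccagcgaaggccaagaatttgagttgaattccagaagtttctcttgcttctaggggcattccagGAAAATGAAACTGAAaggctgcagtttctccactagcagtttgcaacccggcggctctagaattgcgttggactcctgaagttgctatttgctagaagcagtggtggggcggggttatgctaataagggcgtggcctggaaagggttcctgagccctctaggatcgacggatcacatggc
Ifit1: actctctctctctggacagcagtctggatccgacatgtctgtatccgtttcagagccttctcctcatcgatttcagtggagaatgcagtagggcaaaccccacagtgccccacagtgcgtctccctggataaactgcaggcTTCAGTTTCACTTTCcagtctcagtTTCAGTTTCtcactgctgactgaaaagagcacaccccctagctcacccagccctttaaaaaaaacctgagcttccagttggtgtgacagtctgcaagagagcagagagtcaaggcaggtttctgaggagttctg

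Of the 34 genes of the interferon-response list, 26 had a promoter in the RefSeq table, and 17 of these (65.4%) held the letters at least once. Of all 27025 genes with a promoter of the same length, 2638 (9.76%) did. A match is a description of the letters and is no evidence of a bound factor.

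Members made up a larger share of the irradiated libraries than of the non-irradiated ones in both genotypes, and a larger share of the Vegfc-deleted library at either irradiation state. There were 27, 115, 78 and 465 members among 5383, 5537, 3975 and 4239 kept barcodes. That is 0.502% (0.331 to 0.729), 2.08% (1.72 to 2.49), 1.96% (1.55 to 2.44) and 10.97% (10.0 to 11.9). The share was 3.91-fold (2.50 to 6.31) higher with irradiation in controls and 5.28-fold (4.30 to 6.54) higher in Vegfc-deleted mice. Between genotypes it was 4.14-fold (2.70 to 6.55) higher without and 5.59-fold (4.39 to 7.20) higher with irradiation in the Vegfc-deleted library.

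The share of C1q-high cells differed more with irradiation than that of C1q-low cells. They numbered 8, 20, 50 and 259, or 0.149%, 0.361%, 1.26% and 6.11% of kept barcodes. Their share was 8.46-fold (3.98 to 20.7) higher with irradiation in controls and 16.9-fold (10.7 to 28.2) in Vegfc-deleted mice. The C1q-low cells numbered 19, 95, 28 and 206, or 0.353%, 1.72%, 0.704% and 4.86%, and their ratios were 2.00 (1.08 to 3.78) and 2.83 (2.21 to 3.65). Between genotypes the ratios were larger for C1q-low cells, with intervals that overlap: the C1q-low share was 4.86-fold (2.95 to 8.43) and 6.90-fold (4.63 to 10.6) higher in the Vegfc-deleted libraries, and the C1q-high share 2.43-fold (1.03 to 6.38) and 4.86-fold (3.58 to 6.71).

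**Figure D1:**
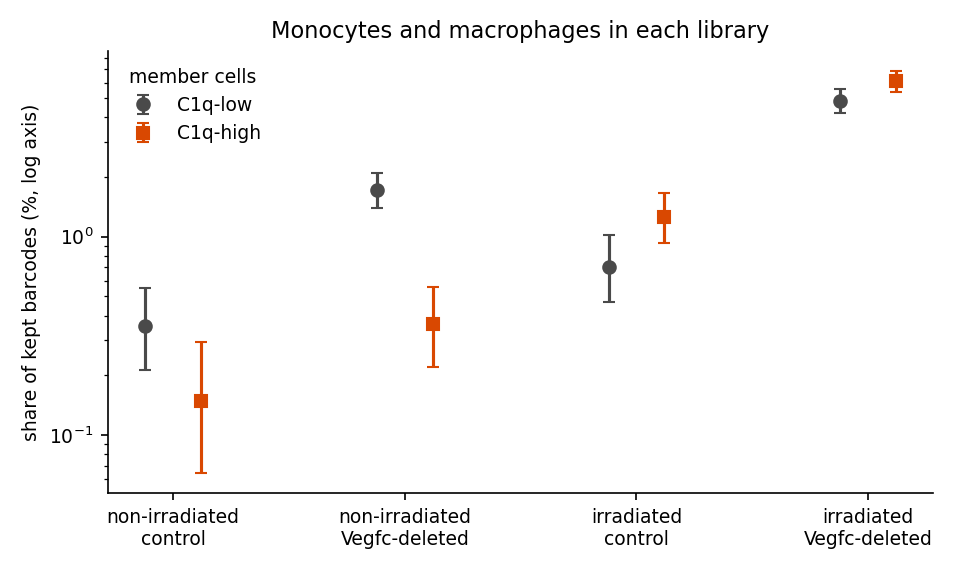
Share of kept barcodes (percent, log axis) held by C1q-low cells (circles) and C1q-high cells (squares) in each of the 4 libraries, with exact 95% counting intervals. Both subsets stand highest in the irradiated Vegfc-deleted library, at 4.86% and 6.11%.

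These shares describe a sorted fraction and move with what else passed the gate. Barcodes with a UMI of Ptprc made up 19.1%, 29.9%, 19.2% and 62.3% of all kept barcodes, so the irradiated Vegfc-deleted library stood apart in its content of CD45-transcribing cells. Counted only among barcodes with a Ptprc UMI, the members with such a UMI made up 2.43%, 6.72%, 8.92% and 16.7%, the same order of libraries within each pair with smaller steps. The part that the gate or the loss of other cells has in the shares was not tested. At the edge of the rule, 3, 4, 6 and 17 members had a marker sum of 5 or 6, and 2, 7, 6 and 13 barcodes that met all other conditions had 3 or 4. The limit on Elane, Mpo and Prtn3 took unlike parts of the libraries. Applied after the conditions on Csf1r, the marker sum, S100a8 and S100a9, it kept 29 of 67, 119 of 180, 89 of 93 and 501 of 542 barcodes. It thus took a larger part of the non-irradiated libraries, and its part in the share ratios was not tested.

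The C1q cut fell within a gradient of other macrophage genes. Cells with no C1q UMI held 4.89 CPM of Vcam1, the adhesion molecule of resident marrow macrophages, against 93.8 CPM in cells with 5 to 9 C1q UMIs, 461 CPM with 10 to 19 and 1669 CPM with at least 100. There were 27 members with 5 to 9 and 45 with 10 to 19 C1q UMIs, on either side of the cut. Genes higher in C1q-high than in C1q-low cells of every library were led by the organic-anion transporter Slco2b1, at 250, 247, 68.1 and 59.1 CPM in C1q-high and 0, 0, 0 and 0.53 CPM in C1q-low cells. It was followed, with the log2 ratio in the library where it was smallest, by Ccr3 (4.62), Vcam1 (4.51), the iron exporter Slc40a1 (4.41), the stress cytokine Gdf15 (4.40), the cholesterol exporter Abca1 (4.09), Ms4a7 (4.00), the oxysterol receptor Nr1h3 (3.88) and the haem-degrading enzyme Hmox1 (3.87). Igf1 (3.58), the lectin Fcna (3.56) and the prostaglandin D synthase Hpgds (3.41) came next. Genes lower in C1q-high cells were led by the integrin Itgb7, with a log2 ratio of -2.99 in the library where it was nearest 0, AI839979 (-2.77), Hopx (-2.53), Gpr141 (-2.13), Plp2 (-1.91), Glipr2 (-1.85), S100a4 (-1.83) and the cell-cycle inhibitor Cdkn2d (-1.82). Itgb7 was 39.4, 0, 1.84 and 14.6 CPM in C1q-high cells and 356, 311, 141 and 117 in C1q-low cells. Csf1r itself was 506, 554, 524 and 584 CPM in C1q-high and 419, 293, 288 and 274 in C1q-low cells.

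In C1q-low cells, Nr4a1, Ccl3, Il1b and most immediate early genes were lower in the irradiated library of either genotype. Nr4a1, the nuclear receptor that non-classical monocytes need and that is also induced within minutes of a stimulus, stood at 846, 814, 114 and 58.4 CPM. Its log2 ratio of irradiated to non-irradiated was -2.89 (-3.31 to -2.50) in the control pair and -3.80 (-4.02 to -3.59) in the Vegfc-deleted pair. The chemokine Ccl3 was 846, 408, 71.2 and 47.1 CPM, with log2 ratios of -3.56 and -3.11. Il1b, a cytokine of activated monocytes, was 468, 321, 66.1 and 25.8 CPM (-2.81 and -3.63). For these 3 genes both irradiated libraries lay below both non-irradiated ones. The chemokine Ccl4 was 569, 158, 102 and 21.6 CPM (-2.48 and -2.87), and here the gap between genotypes was nearly as wide, with log2 ratios of -1.85 and -2.24. Stap1 (314, 140, 45.8 and 28.7 CPM), the NF-kB cofactor Nfkbiz (153, 188, 32.2 and 37.9 CPM), Stxbp6 (124, 93.98, 23.7 and 25.0 CPM) and Arl5c (135, 72.7, 35.6 and 18.4 CPM) completed the 8 lowest by the ratio nearer to 0.

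Against these stands the background of all genes. Of the 3287 genes with at least 30 counts in one of the control libraries, 2.89% were at least 2-fold lower and 6.94% at least 2-fold higher in the irradiated library. At 1.5-fold the figures were 7.82% lower and 18.4% higher. Here and below, genes counted at 2-fold also had an interval that leaves out 1, whereas those counted at 1.5-fold need not, unless stated. In Vegfc-deleted mice, with 8531 such genes, 4.81% were 2-fold lower and 10.6% higher, and 11.4% were 1.5-fold lower and 22.4% higher. The median over all genes was 0.04 and 0.13 on the log2 scale. Of the inflammatory cytokine and chemokine list, 3 of 11 genes were at least 1.5-fold lower and 3 higher in controls, and 9 of 19 lower and 7 higher in Vegfc-deleted mice (medians -0.11 and -0.43), so the list held both directions. Il1rn, the interleukin-1 receptor antagonist, was at least 6.79-fold higher in irradiated controls, and Ccl12 at least 5.14-fold higher in irradiated Vegfc-deleted mice.

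Of the immediate early and dissociation list, genes that tissue digestion also induces, 9 of 15 measured genes were at least 1.5-fold lower and 2 higher in irradiated controls, and 14 of 17 lower and 2 higher in irradiated Vegfc-deleted mice. The list medians were -0.99 (-1.53 to -0.64) and -1.15 (-1.34 to -0.92) on the log2 scale. The flow-responsive factor Klf2 was 524, 963, 158 and 134 CPM and the stress factor Atf3 535, 676, 236 and 96.6 CPM. Jun was 359, 418, 109 and 189 CPM, whereas Fos, at 1280, 2005, 1273 and 1047 CPM, was level between the control libraries, with a log2 ratio of -0.01 (-0.19 to 0.18). Egr1, at 93.6, 33.0, 32.2 and 70.2 CPM, was lower with irradiation in controls, from 25 and 19 counts, and higher in Vegfc-deleted mice. The other kept barcodes moved the same way in part: the summed list was 12742, 8763, 10882 and 3623 CPM there, and Nr4a1 was 137, 132, 73.1 and 32.2 CPM. The part of time in digestion and sorting in these genes was not tested.

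Of the non-classical monocyte list, 8 of 10 measured genes were at least 1.5-fold lower and 2 higher with irradiation in controls, and 8 of 14 lower and 2 higher in Vegfc-deleted mice, with list medians of -1.55 and -1.05. Cx3cr1, the fractalkine receptor of these cells, was 213, 159, 39.0 and 75.3 CPM. Ace, the angiotensin-converting enzyme, was 93.6, 33.8, 0 and 9.21 CPM. The transcription factor Pou2f2 was 270, 192, 91.5 and 71.8 CPM. All 3 were lower in both irradiated libraries, though Ace rested on 5, 12, 0 and 13 cells. Cells with at least 3 UMIs of Ly6c2 alone, a set chosen after the data were seen, had an Ace log2 ratio of 0.48 in Vegfc-deleted mice, the other direction.

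The classical monocyte list, which includes the rule's genes Ly6c2, Ccr2 and Ms4a6c, differed between the genotypes. In controls 6 of 20 genes were at least 1.5-fold lower and 2 higher with irradiation, with a median of -0.32, and in Vegfc-deleted mice 15 of 20 were lower and 1 higher, with a median of -1.17 (-1.25 to -1.06). Lyz2 was 17309, 21207, 9724 and 7108 CPM. The chitinase-like Chil3 was 490, 990, 280 and 174 CPM and the endotoxin co-receptor Cd14 213, 460, 125 and 46.8 CPM. The matrix proteoglycan Vcan went the other way, at 33.7, 117, 644 and 306 CPM, with log2 ratios of 4.18 (3.32 to 5.40) and 1.38 (1.15 to 1.64). Ccr2 was nearly level at 1108, 945, 1059 and 924 CPM. The share of C1q-low cells with at least 3 Ly6c2 UMIs was 73.7%, 85.3%, 75.0% and 56.8% (14, 81, 21 and 117 cells), with 0, 3, 1 and 1 cells just under the cut. The C1q-low cells of the irradiated Vegfc-deleted library thus held the smallest share of Ly6c2-bearing cells. Within such cells, which were chosen on a gene of this list, the list median in Vegfc-deleted mice was -0.33.

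The genes higher with irradiation in both genotypes began with Lmna, the lamin of stiff nuclei, at 3.74, 13.2, 132 and 346 CPM. Within Ly6c2-bearing cells alone Lmna was 0, 9.56, 52.0 and 58.4 CPM, still higher in both irradiated libraries at a lower level. The adaptor Dok2 was 0, 6.61, 122 and 88.1 CPM, at least 10.9-fold higher in controls, taking 3 counts as the floor of a library at 0, and with a log2 ratio of 3.66 (2.79 to 4.88) in Vegfc-deleted mice. The guanylate-binding protein Gbp7 was 11.2, 18.4, 96.6 and 88.7 CPM, from 3 counts in the non-irradiated control, with log2 ratios of 2.90 (1.49 to 5.42) and 2.25 (1.69 to 2.92). Both genes were several-fold higher in either irradiated library than in either non-irradiated one. The signalling inhibitor Spred1 was 15.0, 33.0, 103 and 145 CPM, the neuronal-polarity gene Shtn1 41.2, 4.41, 176 and 155 CPM and the membrane-repair gene Myof 26.2, 15.4, 110 and 103 CPM. The metallothionein Mt1 was 71.1, 82.2, 308 and 363 CPM, but in cells thinned to 3000 UMIs each its log2 ratio in controls was -0.20 where it had been 2.08. The p53 target Rps27l was 341, 387, 678 and 681 CPM, with log2 ratios of 0.99 and 0.81, whereas the p53 list had medians of 0.19 and -0.19, with 2 of 7 and 6 of 18 genes higher and as many lower. The cell-cycle list had medians of 0.04 and 0.18.

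A class II-bearing set and an osteoclast-gene set lay within the C1q-low cells of the irradiated Vegfc-deleted library. Both sets, their genes and their cut-offs were chosen after the data were seen. Of the 206 cells, 91 held at least 3 Ly6c2 UMIs and little class II, 26 held both, 50 held at least 50 UMIs of the class II genes H2-Aa, H2-Ab1, H2-Eb1 and Cd74 with less Ly6c2, 26 held at least 20 UMIs of osteoclast genes, and 13 fell in none of these sets. Over all C1q-low cells, class II-bearing cells numbered 3, 6, 8 and 79, or 15.8%, 6.32%, 28.6% and 38.3%, with 0, 1, 2 and 5 cells between 25 and 49 UMIs. H2-Aa was 1007, 175, 841 and 1238 CPM, so irradiated and non-irradiated libraries did not separate: its log2 ratio was -0.26 (-0.48 to -0.04) for controls but 2.82 (2.64 to 3.02) for Vegfc-deleted mice.

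The 50 class II-bearing, Ly6c2-low cells held 288 CPM of the lectin Mgl2, in 24 cells, against 0 in the 91 Ly6c2-bearing, class II-low cells. The class II master factor Ciita was 238 against 5.61 CPM. Of the monocyte genes in the rule, Ccr2 was 926 and Csf1r 280 CPM. Some dendritic-cell genes were detected as well. Batf3, a factor of conventional dendritic cells, was at 203 CPM in 42 of the 50 cells, against 17.5 CPM in the 91. Irf4 stood at 43.4 CPM in 20 cells and Itgax at 120 CPM in 27. Fewer cells held Cd209a (86.8 CPM, 11 cells), Zbtb46 (14.5 CPM, 7 cells), Flt3 (15.8 CPM, 4 cells), Clec9a (14.5 CPM, 3 cells), Xcr1 (26.3 CPM, 2 cells) and Itgae (22.4 CPM, 1 cell). Ccr7 and Siglech, which the rule limits, had 0 UMIs and Ccr9 had 1. Bst2 was level at 187 against 189 CPM. Whether a part of them are dendritic cells was not tested.

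The 26 osteoclast-gene cells were chosen on the summed UMIs of Acp5, Ctsk, Atp6v0d2, Ocstamp, Dcstamp, Mmp9 and Calcr, so their excess of these genes over the other 180 C1q-low cells of that library is set by the cut and is given as a description. The protease Ctsk was 3328 CPM against 0, though only 18 of the 26 cells had it. Acp5 (tartrate-resistant acid phosphatase) was 3145 against 20.01 CPM and the gelatinase Mmp9 3729 against 9.83 CPM. The fusion genes Dcstamp and Ocstamp were 164 against 1.05 and 141 against 3.51 CPM, and the proton-pump subunit Atp6v0d2 was 578 against 3.16 CPM. Outside the genes of the cut, the receptor for the osteoclast factor RANKL, Tnfrsf11a, was 204 against 34.1 CPM and the master factor Nfatc1 313 against 58.3 CPM. Their monocyte genes were near 0, with Ly6c2 at 4.199 against 1502 and Ccr2 at 2.099 against 1233 CPM, while Csf1r was 331 against 255 CPM.

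**Figure D2:**
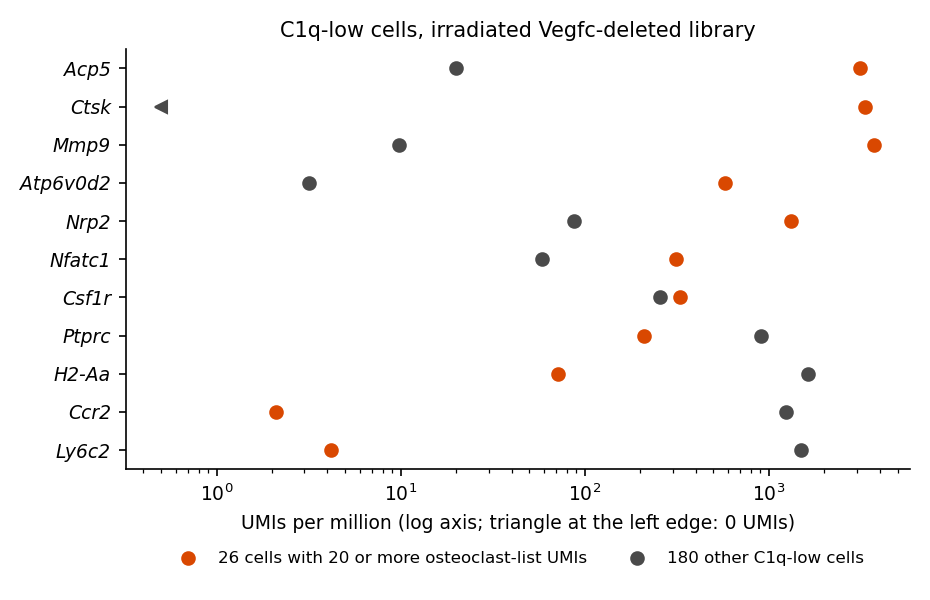
CPM of osteoclast and monocyte genes, Nrp2, Ptprc and H2-Aa (log axis) in the 26 osteoclast-gene cells and the other 180 C1q-low cells of the irradiated Vegfc-deleted library. Ctsk, Acp5 and Mmp9, genes that chose the first set, exceed 3000 CPM in it, whereas Ly6c2 and Ccr2 exceed 1000 CPM in the second.

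These cells were large in RNA, with a median of 36969.5 UMIs against 13778. At least 5 UMIs of cell-cycle genes were held by 15 of the 26 and by 78 of the other 180, and Mki67 was 314 against 529 CPM. This cut and that of 20 osteoclast UMIs are absolute counts, which cells with more UMIs reach more readily. Cells with at least 20 osteoclast UMIs numbered 0, 0, 2 and 26 among C1q-low cells (0%, 0%, 7.14% and 12.6%). The upper limits of the exact intervals were 17.6% and 3.81% for the non-irradiated libraries, so their absence is limited by 19 and 95 cells. In the irradiated Vegfc-deleted library 2 cells had 10 to 19 such UMIs and 5 had 20 to 39. Among C1q-high cells such cells numbered 0, 0, 7 and 8, the last 2 being 14.0% (5.82 to 26.7) of 50 and 3.09% (1.34 to 6.00) of 259 cells. There the irradiated control held the larger share, the other order to C1q-low cells.

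Over all C1q-low cells, Acp5 was therefore 7.49, 9.55, 72.9 and 803 CPM, Mmp9 0, 3.67, 47.5 and 942 CPM, and Ctsk 0, 0, 8.47 and 834 CPM, the last at least 379-fold higher with irradiation in Vegfc-deleted mice. All 3 measured genes of the osteoclast list were at least 1.5-fold higher with irradiation in controls and all 11 in Vegfc-deleted mice, with medians of 1.40 and 3.76. In the irradiated control, 2 of 28 cells held at least 20 osteoclast UMIs, and 1 cell gave 94.6% of the Atp6v0d2 counts. When the irradiated libraries were compared, 9 of 11 genes were higher and none lower in the deleted library. Between genotypes with irradiation, 16.5% of the 8503 genes tested were at least 1.5-fold higher and 6.04% lower in the Vegfc-deleted library, and 5.36% and 1.42% at 2-fold. Without the cells of at least 20 osteoclast UMIs the 2 medians in Vegfc-deleted mice and between genotypes were 0.36 and 0.19; the cells left out were chosen for genes of this list. They also hold a large part of the Nrp2 RNA, a co-receptor of VEGF-C, at 1318 against 87.1 CPM.

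Summed over all C1q-high cells, several genes of the resident island macrophage were lower in irradiated than in non-irradiated marrow. Vcam1 was 5725, 7457, 1255 and 864 CPM, with log2 ratios of -2.19 (-2.31 to -2.06) for the control and -3.11 (-3.20 to -3.02) for the Vegfc-deleted genotype. Fcna, a lectin of the ficolin family, was 2314, 2233, 209 and 264 CPM (-3.47 and -3.08). The iron exporter Slc40a1 was 3194, 2329, 918 and 795 CPM (-1.80 and -1.55). Spic, the factor that red-pulp and marrow macrophages need and that haem induces, was 486, 421, 99.3 and 116 CPM (-2.29 and -1.87). For each of these genes both irradiated libraries lay below both non-irradiated ones. Receptors for dying cells and haemoglobin followed the same order: Axl was 1400, 1703, 534 and 372 CPM, Mertk 578, 421, 202 and 138 CPM and the haemoglobin scavenger receptor Cd163 263, 223, 57.0 and 43.8 CPM. Transferrin, Trf, was 1209, 1360, 459 and 468 CPM and the haem oxygenase Hmox1 5403, 3274, 2132 and 1248 CPM.

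Among all C1q-high genes with at least 30 counts in one library, 5114 in controls, 2.46% were at least 2-fold lower and 9.48% higher with irradiation; at 1.5-fold the figures were 4.2% and 28.1%. In Vegfc-deleted mice, with 8649 such genes, they were 1.87% lower and 7.49% higher at 2-fold, and 3.16% and 32.2% at 1.5-fold. Of the resident marrow macrophage list, which holds C1qa, C1qb, C1qc, Adgre1 and Cd68 of the rule, 14 of 24 genes were at least 1.5-fold lower and 5 higher in controls, and 12 of 23 lower and 5 higher in Vegfc-deleted mice (medians -0.83 and -0.78). Of the haem and iron list, 7 of 17 were lower and none higher in controls, and 11 of 20 lower and 2 higher in Vegfc-deleted mice (medians -0.38 and -0.71). The 4 genes lowest by the ratio nearer to 0 were the potassium channel Kcnj10 (276, 277, 21.2 and 22.99 CPM), the activation marker Cd83 (835, 632, 72.7 and 27.4 CPM), the mitochondrial iron importer Slc25a37 (270, 319, 31.3 and 36.6 CPM) and Fcna. Gdf15 was 1341, 758, 203 and 86.0 CPM.

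**Figure D3:**
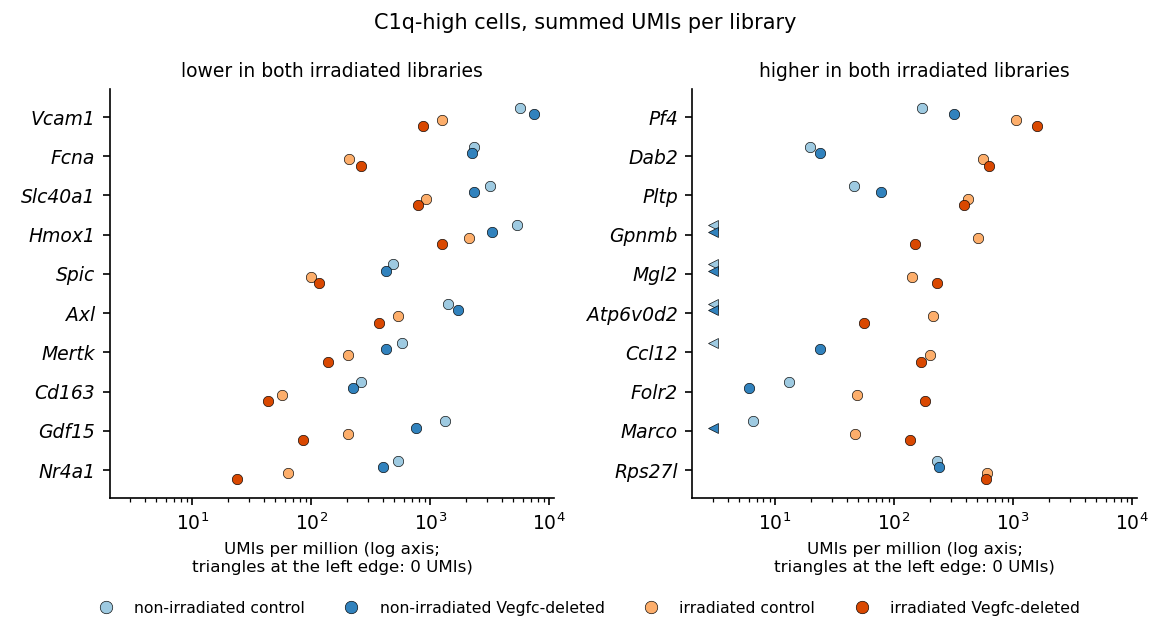
CPM (log axis) of 10 genes lower and 10 genes higher with irradiation in C1q-high cells, 1 point for each of the 4 libraries. Triangles mark genes without a UMI in a library; Vcam1 stands at 5725 and 7457 CPM without and at 1255 and 864 CPM with irradiation.

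Red-cell RNA moved with these genes. The erythroid list summed to 68865, 81870, 368 and 1378 CPM in C1q-high cells, and 3, 6, 0 and 2 of them held at least 100 haemoglobin UMIs, with all 10 genes of the list detected in 3 libraries and 9 in the irradiated control. In the other kept barcodes the same list summed to 168777, 132191, 62593 and 28977 CPM. Without the cells of at least 100 haemoglobin UMIs the log2 ratios of Vcam1 were -2.66 and -3.01, so that difference was as large without them. Those of Slc25a37, a gene that maturing red cells express, were -1.79 and -1.07, against -3.10 and -3.13 with them. Those of Hmox1 were -2.15 and -0.57. With 8 and 20 cells in the non-irradiated libraries, single cells weigh on every value here.

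The level of Vcam1 reflected how many cells held it as well as how much each held. Cells with at least 10 Vcam1 UMIs, a cut chosen after the data were seen, made up 6 of 8, 13 of 20, 19 of 50 and 64 of 259 C1q-high cells (75.0%, 65.0%, 38.0% and 24.7%). In cells thinned to 3000 UMIs, with a cut of 2 UMIs and 2, 7, 12 and 40 shallower cells left out, the shares were 100%, 84.6%, 36.8% and 23.3%. In the irradiated Vegfc-deleted library 36 cells had 5 to 9 and 20 had 10 to 19 Vcam1 UMIs, so many lie near the cut. The 64 Vcam1-bearing cells there held 2624 CPM of Slc40a1, 344 of Spic, 780 of Fcna and 444 of the scavenger receptor Marco. The other 195 cells held 225, 44.8, 103 and 38.6 CPM of these. They held more Ccr2 (611 against 63.5 CPM), H2-Aa (3643 against 744 CPM) and Mgl2 (290 against 34.3 CPM). Vcam1-bearing cells of the 4 libraries held 3206, 2757, 1804 and 2624 CPM of Slc40a1 and 482, 488, 176 and 344 CPM of Spic. Their Fcna was 2329, 2585, 377 and 780 CPM. In Vegfc-deleted mice the Slc40a1 step with irradiation was small in these cells, whereas that of Fcna stayed large. The part of the mix of cells in these differences was not tested.

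**Figure D4:**
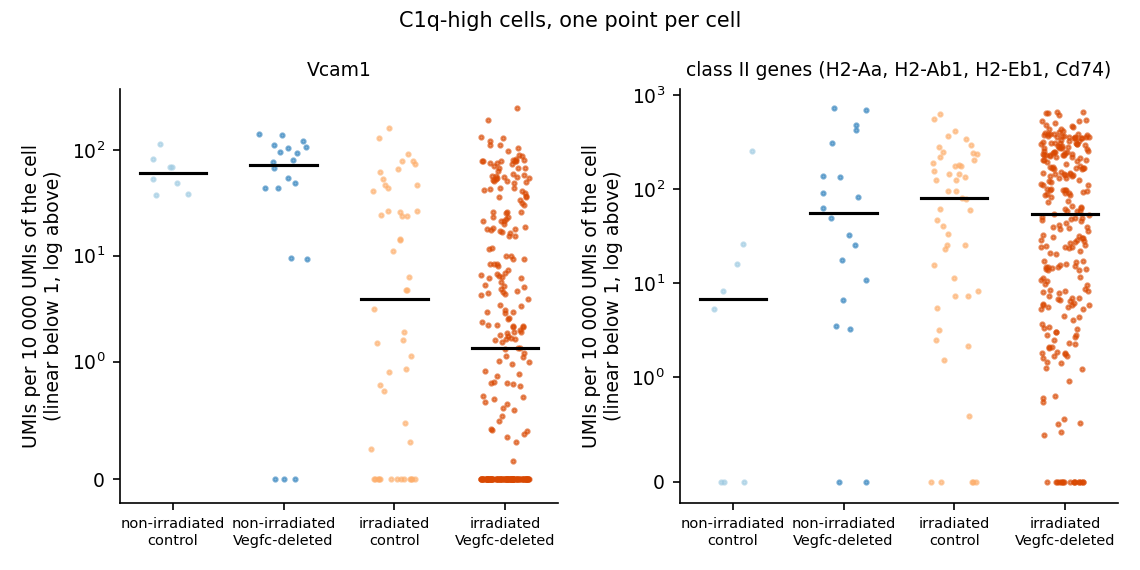
Vcam1 and summed class II UMIs (H2-Aa, H2-Ab1, H2-Eb1 and Cd74) per 10000 UMIs in each C1q-high cell of the 4 libraries, with the median as a black line. Most cells of the irradiated libraries hold little Vcam1, although some in both, 19 of 50 and 64 of 259, hold at least 10 UMIs.

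Other macrophage genes were higher in the irradiated C1q-high cells. Dab2, an endocytic adaptor, was 19.7, 24.1, 559 and 633 CPM, from 3 and 4 counts in the non-irradiated libraries, with log2 ratios of 4.61 (3.27 to 7.11) and 4.55 (3.36 to 6.59). Gpnmb, a glycoprotein of lipid-laden macrophages, was 0, 0, 506 and 149 CPM, at least 25.7-fold and 8.24-fold higher, in 13 and 35 cells. Mgl2 was 0, 0, 141 and 229 CPM, at least 7.14-fold and 12.7-fold higher, in 16 and 102 cells. Atp6v0d2 was 0, 0, 211 and 55.9 CPM, at least 10.7-fold and 3.09-fold higher. In the irradiated libraries 1 cell gave 54.7% and 47.5% of the Gpnmb counts and 59.8% and 32.3% of those of Atp6v0d2. The 4 genes were at or near 0 in all 28 non-irradiated C1q-high cells. The chemokine Pf4, also a platelet gene, was 171, 319, 1053 and 1583 CPM (2.60 and 2.30), and the phospholipid transfer protein Pltp 46.0, 78.2, 419 and 387 CPM (3.09 and 2.25). Of the resident list, Folr2, the folate receptor, was 13.2, 6.02, 48.8 and 184 CPM from 2 and 1 counts, with log2 ratios of 1.58 (-0.03 to 4.97) and 4.35 (2.45 to 10.24). Marco was 6.57, 0, 46.9 and 135 CPM, with a log2 ratio of 2.26 (0.29 to 8.17) in controls from 1 count and at least 7.48-fold higher in Vegfc-deleted mice.

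The inflammatory list had 12 of 20 genes at least 1.5-fold higher and 2 lower with irradiation in controls (median 1.74), and 9 of 20 higher and 3 lower in Vegfc-deleted mice (median 0.21). The monocyte-attracting chemokines Ccl2, Ccl12, Ccl6 and Ccl9 were higher in both irradiated libraries. Ccl2 was 302, 409, 1138 and 627 CPM, Ccl12 0, 24.1, 202 and 170 CPM, Ccl6 381, 524, 2714 and 996 CPM and Ccl9 65.7, 108, 508 and 388 CPM. The neutrophil chemokine Cxcl2 was 92.0, 157, 825 and 217 CPM, and in Vegfc-deleted mice its log2 ratio was 0.45 (-0.09 to 1.09). The receptor antagonist Il1rn was 0, 0, 44.1 and 45.5 CPM, at least 2.24-fold and 2.52-fold higher. Other members were lower: Il1b was 414, 488, 80.9 and 11.1 CPM, with log2 ratios of -2.36 and -5.45, although in the irradiated control 94.3% of its counts came from 1 cell. Ccl4 was 105, 488, 77.3 and 93.5 CPM (-0.48 and -2.39).

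The immediate early list was lower here too, with 12 of 18 genes at least 1.5-fold lower and 1 higher in controls and 15 of 19 lower and none higher in Vegfc-deleted mice (medians -0.95 and -1.57). Nr4a1 was 532, 403, 64.4 and 24.0 CPM and Klf2 887, 819, 219 and 200.03 CPM. Of the p53 target list, 7 of 14 genes were higher and 2 lower in controls and 8 of 19 higher and 2 lower in Vegfc-deleted mice (medians 0.53 and 0.10). The apoptosis gene Bax was 59.2, 78.2, 202 and 252 CPM and Rps27l 230.1, 241, 602 and 595 CPM, each with both irradiated libraries above. Phlda3 was 0, 0, 31.3 and 26.0 CPM, at least 1.59-fold and 1.44-fold higher. The cell-cycle inhibitor Cdkn1a, at 177, 78.2, 260.3 and 324 CPM, had log2 ratios of 0.53 (-0.02 to 1.18) and 2.00 (1.27 to 2.96).

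Class II genes and cycle genes of C1q-high cells depended on the genotype compared. H2-Aa was 835, 2744, 2592 and 2954 CPM, so the non-irradiated control stood alone as low; 3 of its 8 cells had a UMI of it. The class II list was higher with irradiation in controls (7 of 8 genes higher, 1 lower, median 1.35) and level in Vegfc-deleted mice (1 of 11 higher, none lower, median -0.04). The cell-cycle list had 5 of 21 genes higher and 2 lower in controls (median -0.08) and 19 of 24 higher and none lower in Vegfc-deleted mice (median 0.98). Mki67, however, was 348, 295, 141 and 227 CPM, lower in both irradiated libraries, although in controls its log2 ratio was 1.95 without the cells of at least 100 haemoglobin UMIs. Of the C1q-high cells, those with at least 5 cycle UMIs numbered 2, 3, 7 and 56 (25.0%, 15.0%, 14.0% and 21.6%). The classical monocyte list had 4 of 15 genes higher and 5 lower in controls (median -0.98) and 16 of 20 higher and 2 lower in Vegfc-deleted mice (median 1.52). The control median turned to 0.53 in thinned cells, 0.22 without haemoglobin-bearing cells and 0.25 with each cell weighted equally; Ly6c2 counts of at least 3 were held by 1, 0, 4 and 43 cells.

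Between genotypes with irradiation, most interferon-response genes were higher in C1q-high cells of the Vegfc-deleted library. Ifi27l2a, an interferon-induced protein of the mitochondrial membrane, was 197, 728, 864 and 2057 CPM, with log2 ratios of deleted to control of 1.87 (1.30 to 2.51) without and 1.25 (1.15 to 1.35) with irradiation. Bst2, whose promoter is printed above, was 164, 373, 320.1 and 645 CPM (1.17 and 1.01). Isg15 was 6.57, 193, 86.5 and 231 CPM, with log2 ratios of 4.31 (2.29 to 10.22), from 1 count in the control, and 1.41 (1.11 to 1.74). These 3 genes led a ranking that took only genes with ratios of the same sign at both irradiation states. That the deleted library lay above the control at either state was thus set by their choice. With irradiation 21 of the 34 list genes were at least 1.5-fold higher and none lower, with a median of 0.65 (0.39 to 1.17). Over all 8654 genes tested there, 11.3% were 1.5-fold higher and 5.7% lower, and 3.44% and 1.66% at 2-fold, and the all-gene median was 0.01. In cells thinned to 3000 UMIs the list median was 0.36.

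The list was not uniform. Without irradiation, where 8 and 20 cells were compared, Irf7, Ifi44, Cxcl9 and Ifit1 were higher in the Vegfc-deleted library. Oas3, Zbp1 and Stat2 were lower there. Irf7, the factor that amplifies the response, was 19.7, 108, 103 and 188 CPM, with a log2 ratio of 0.86 (0.58 to 1.17) with irradiation. Ifi44 was 6.57, 36.1, 11.96 and 40.1 CPM (1.69), Oas3, which makes the activator of RNase L, 32.9, 30.1, 19.3 and 56.9 CPM (1.53), and the chemokine Cxcl9, mainly induced by interferon-gamma, 0, 12.04, 36.8 and 94.7 CPM (1.35). In thinned cells, however, Ifi44 and Cxcl9 had log2 ratios of -0.09 and -1.20. The nucleic-acid sensor Zbp1 was 26.3, 6.02, 56.1 and 132 CPM (1.22). Ifit1, whose promoter holds as many matches as that of Isg15, was 0, 54.2, 50.6 and 74.4 CPM, with a ratio of 0.55 (0.14 to 1.00). Stat2, which carries the signal, was 59.2, 42.1, 55.2 and 55.4 CPM, with a ratio of -0.00 (-0.41 to 0.44).

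**Figure D5:**
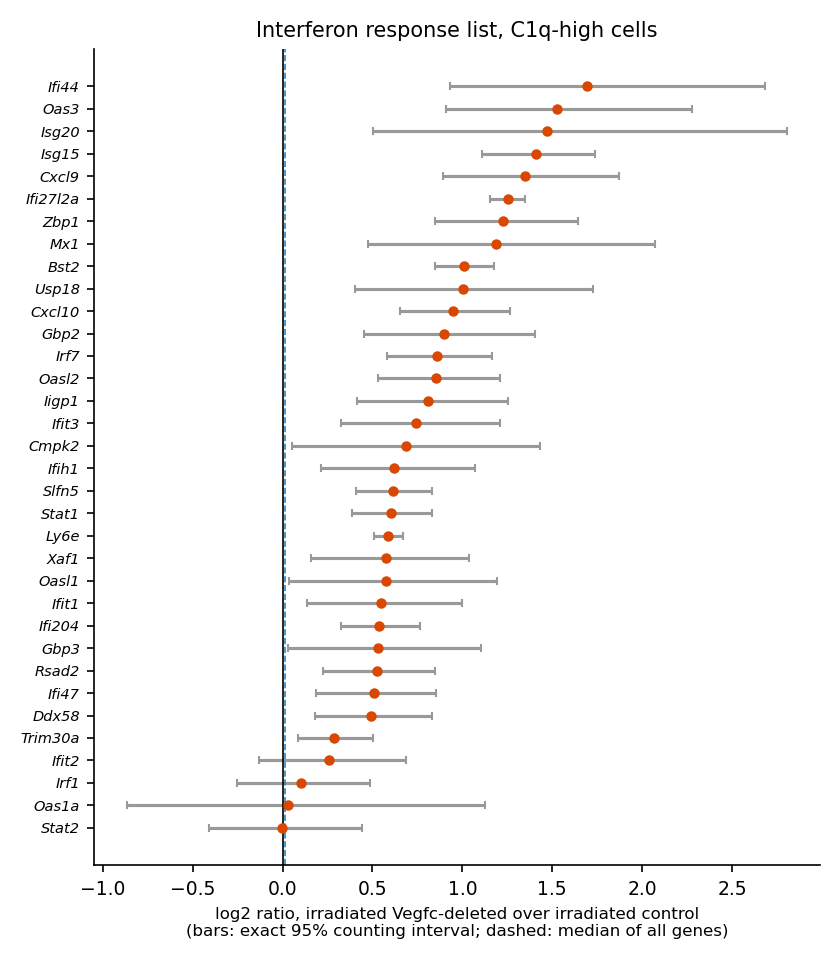
Log2 ratio of CPM in irradiated Vegfc-deleted to irradiated control C1q-high cells for the 34 genes of the interferon-response list, with 95% counting intervals; the dashed line is the median of all genes. Most genes lie to the right of it, and Stat2 lies at -0.00.

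In C1q-low cells these genes had no single order between the genotypes. There Isg15 was 78.6, 55.8, 98.3 and 109 CPM, Ifi27l2a 1336, 2079, 1478 and 1548 CPM and Bst2 120, 178, 207 and 211 CPM. With irradiation 6 of 32 list genes were higher and 5 lower between genotypes (median -0.14), and the list's difference between the subsets was not tested. In the other kept barcodes the summed interferon list was 2050, 2056, 3805 and 2508 CPM. It was nearly level between genotypes without irradiation and lower in the Vegfc-deleted library with it. Isg15 was 182, 176, 130 and 129 CPM in those barcodes and Bst2 101, 135, 300 and 228 CPM. Ifi27l2a, at 30.1, 77.9, 66.0 and 206 CPM, lay higher in the Vegfc-deleted library than in the control at either irradiation state. Within the irradiated Vegfc-deleted library, Ifi27l2a was 2406 CPM in the 195 C1q-high cells under 10 Vcam1 UMIs and 937 CPM in the other 64, and Isg15 was 259 and 139 CPM. In the irradiated control the same sets, of 31 and 19 cells, held 1129 and 559 CPM of Ifi27l2a and 105 and 65.2 CPM of Isg15. For both genes the deleted library was the higher in either set. The part of the mix of cells in the genotype difference was not tested.

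Between irradiated and non-irradiated C1q-high cells, 19 of 27 interferon-list genes were at least 1.5-fold higher and none lower in controls, and 16 of 34 higher and 1 lower in Vegfc-deleted mice (medians 1.03 and 0.55). Of all genes, 28.1% and 32.2% were 1.5-fold higher there and 4.2% and 3.16% lower, with medians of 0.04 and 0.12. These comparisons share libraries with those between genotypes.

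Other C1q-high genes higher in both Vegfc-deleted libraries were led by Tmem176a, a membrane protein of immature dendritic cells and macrophages, at 98.6, 259, 228 and 433 CPM (1.36 and 0.92). Lower were the glutathione transferase Gstm1 (224, 72.2, 183 and 83.1 CPM, ratios -1.59 and -1.14), the signalling protein Plek (473, 193, 280 and 143 CPM, -1.28 and -0.96) and lipoprotein lipase, Lpl (1854, 969, 2435 and 1096 CPM, -0.93 and -1.15). Gdf15 had ratios of -0.82 and -1.24, but in thinned cells the second was 0.70 and with each cell weighted equally 0.34. Of the lipid and cholesterol list, 11 of 19 genes were at least 1.5-fold lower and 2 higher in the irradiated Vegfc-deleted library than in the irradiated control (median -0.71). The fatty-acid carrier Fabp5, at 421, 469, 2731 and 597 CPM, was high in the irradiated control alone. The inflammatory list had 9 of 21 genes lower and 4 higher in that comparison (median -0.59).

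In C1q-low cells the genes ranked between genotypes had, by their choice, ratios of the same sign at both irradiation states. Those of the 5 higher genes named here had intervals that include 0 without irradiation. Uqcc3, an assembly factor of the respiratory chain, was 26.2, 50.7, 45.8 and 84.2 CPM, with log2 ratios of 0.86 (-0.17 to 2.32) and 0.86 (0.31 to 1.504). The translation factor Eif3b was 44.9, 79.3, 79.7 and 136 CPM. Mrps18a, Ankhd1 and Casp8ap2 followed, with ratios nearest 0 of 0.76, 0.72 and 0.68. Lower were the transcription factors Mef2d (124, 76.4, 79.7 and 46.0 CPM) and Rel (337, 217, 199.96 and 70.0 CPM), with Tnfaip2 (273, 168, 259 and 68.4 CPM) and Slfn5, with ratios nearest 0 from -0.71 to -0.64. Without irradiation 2.16% of the 5451 genes tested were at least 2-fold higher and 0.679% lower in the deleted library, and none of the genes just named reached 2-fold there. With irradiation, 6.04% of all genes were at least 1.5-fold lower and 16.5% higher. Of the classical monocyte list, 12 of 20 genes were lower there and none higher (median -0.66). Within Ly6c2-bearing cells, chosen on a gene of this list, the median was -0.21. The NF-kB list had 8 of 17 genes lower and 1 higher (median -0.45).

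The members held little RNA of VEGF receptors apart from neuropilins. Nrp2 was 7.49, 13.2, 71.2 and 396 CPM in C1q-low cells, where the osteoclast-gene cells held most of it in the irradiated Vegfc-deleted library, and within Ly6c2-bearing cells its log2 ratio with irradiation in Vegfc-deleted mice was -0.20. In C1q-high cells it was 85.4, 66.2, 320.1 and 189 CPM. Nrp1 was 67.4, 96.2, 76.3 and 52.6 CPM in C1q-low and 131, 66.2, 92.9 and 152 CPM in C1q-high cells. The ligand gene Vegfa was 41.2, 33.8, 6.78 and 3.68 CPM and the receptor gene Flt1 22.5, 10.3, 11.9 and 3.68 CPM in C1q-low cells.

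RNA of other cell types was in part carried by single cells and in part spread over many members. Of the B-lineage list in the irradiated Vegfc-deleted library, 93.9% of the 3370 CPM in C1q-low cells came from 1 cell, and 76.1% of the 4665 CPM in C1q-high cells. In the non-irradiated control, 99.003% of the 1127 CPM of the basophil and mast-cell list in C1q-low cells came from 1 cell. The T and NK list had at least 3 UMIs in 0, 0, 0 and 8 C1q-low and 0, 0, 3 and 14 C1q-high cells. The endothelial list was at most 151 CPM in any subset, with Cdh5 at 0 by the rule. The mature neutrophil list was 337, 807, 1073 and 2203 CPM in C1q-low cells, and in the irradiated Vegfc-deleted library Mmp9, which osteoclasts also express, gave 42.8% of it; there 143 of the 206 cells held at least 10 UMIs of the list. The granulocyte-monocyte precursor list was 3234, 3021, 2203 and 1919 CPM in C1q-low cells, led by F13a1 and Calr, which monocytes also express. The erythroid list was 3540, 3366, 297 and 2490 CPM in C1q-low cells, with at least 10 UMIs in all 19 and in 94 of 95 cells of the non-irradiated libraries, whereas in the irradiated Vegfc-deleted library 89.6% came from 1 cell. The LepR stromal list, which holds the macrophage-expressed Apoe and Lpl, was 6225, 6988, 4761 and 9285 CPM in C1q-high cells, and 46.6% of the last came from 1 cell. The megakaryocyte list was 204, 337, 1063 and 1599 CPM in C1q-high cells, with Pf4 giving 83.9% to 99.05% of it. Their part in the results above was not tested.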

How the data were processed

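Droplet single-cell libraries (Chromium 3′ v3.1 chemistry, Illumina NovaSeq) were available as matrices of raw UMI counts per gene and barcode over 31053 features, which the authors deposited without normalization. Per the submitters' processing notes, Cell Ranger 2.1.1 and build mm10 were used, whereas per the file headers the software version was 3.1.0; the annotation release was not given in the sources used here. The members and gene lists were chosen with earlier results of these data known.

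Counts were summed over the members of each subset in each library and divided by their summed UMIs (CPM). Shares carry exact Clopper-Pearson intervals and ratios exact conditional intervals at 95%. Folds given as at least a value took 3 counts as the floor of a library at 0 and are not limits of these intervals. Log2 ratios added 0.5 counts, list medians used genes with at least 10 counts in the 2 libraries together, and genes counted as 1.5-fold or 2-fold different had at least 30 counts in the higher library. Those counted as 2-fold different also had an interval that leaves out 1. Genes were ranked by whichever of their 2 ratios was closer to 0, and the top and bottom 8 were named for irradiation in C1q-low cells, 5 for genotype, 4 of each in C1q-high cells, and up to 4 genes of each list with the largest ratios, plus members whose biology the sentence needed. Of the genes so ranked, 2 are not reported here. Ranked genes needed ratios of the same sign and, where they were higher, 50 CPM, 30 counts, UMIs in 10 cells (5 in C1q-high) and 0.5 times the CPM over all kept barcodes. The C1q cut, class II, Vcam1, osteoclast and haemoglobin sets are UMI cut-offs, not types. Doublets were scored with Scrublet (scanpy 1.11.5) and kept. Python 3.11.15, numpy 2.4.6, scipy 1.17.1, pandas 2.3.3 and matplotlib 3.10.9 were used. The TMM scaling of edgeR 4.0.16 (R 4.3.3) served as an alternative normalization only. The procedure was tested on simulated summed counts, which held no spread between cells. Other alternatives changed the barcode filters, marker sum, C1q cut, doublets, depth (3000 UMIs per cell) and weight of cells.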

Additional observations from a re-analysis of the deposited data

Results flagged for a closer look

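For 3 genes the irradiated to non-irradiated ratio had opposite signs in the genotypes; with 1 library per group the difference was not tested. Ctsl, a lysosomal protease, in C1q-low cells had log2 ratios of 1.179 in controls and -1.16 in Vegfc-deleted mice (56.1, 123, 130.5 and 55.3 CPM); in thinned cells the second was 0.10. Fn1, fibronectin, in C1q-high cells had ratios of -1.125 and 5.608 (519, 0, 239 and 147 CPM); the first value comes from 79 counts in 2 cells, and against the floor of 3 counts the second is at least 8.12-fold. Ly6c2 in C1q-high cells had ratios of -2.704 and 3.655 (269, 18.1, 41.4 and 265 CPM), and 2 of the 8 cells of the non-irradiated control held its 41 counts.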

How the results depend on the processing

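No paired analysis was possible because each group has 1 library, and there was no replicate to leave out. The TMM scaling of edgeR kept all counts of genes within 1.5 times. For shares 38 of 52 alternatives stayed within the counting interval, for list medians 887 of 948, and for single genes 2297 of 2731. The settings with Ly6c2-bearing cells only and without osteoclast-gene or haemoglobin-bearing cells were chosen after seeing the data. The cause of the shifts below was not tested, other than that the settings leave out cells.

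The member share was 0.31%, 1.498%, 1.145% and 7.179% in thinned cells and 2.427%, 6.715%, 8.924% and 16.7% of Ptprc-bearing barcodes. With at least 1000 genes it was 2.514% in the non-irradiated Vegfc-deleted library; in the irradiated one it was 9.834% at most 5% mitochondrial UMIs and 9.979% at a marker sum of at least 10. C1q-high cells made up 9.709% of members in the non-irradiated and 50.41% in the irradiated Vegfc-deleted library at 5% mitochondrial UMIs, and 47.74% in the latter at a C1q cut of 20.

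A 1.5-fold limit with an interval that leaves out 1, in place of 2-fold, gave in C1q-low cells 379 genes higher and 239 lower with irradiation in controls (228 and 95 at 2-fold), 1552 and 958 in Vegfc-deleted mice (905 and 410), 197 and 110 between genotypes without irradiation (118 and 37) and 685 and 506 with it (456 and 121). In C1q-high cells it gave 213 lower with irradiation in controls (126 at 2-fold), 273 in Vegfc-deleted mice (162), and 595 higher and 476 lower between genotypes with irradiation (298 and 144).

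Among list medians of C1q-low cells with irradiation in controls, class II was 0.5525 thinned, -0.6718 in Ly6c2-bearing cells and -0.6896 with equal weights, and immediate early -0.5433 thinned. In Vegfc-deleted mice the classical list was -0.9499 at 5% mitochondrial UMIs, -1.034 at a marker sum of 10, -0.4976 thinned, -1.254 at a C1q cut of 20, -0.3298 in Ly6c2-bearing cells, -0.7508 without osteoclast-gene cells and -0.7304 with equal weights. The osteoclast list was 0.2433 in Ly6c2-bearing cells and 0.3627 without osteoclast-gene cells, and immediate early -0.8531 thinned, -0.6452 and -0.8204 in these. Between genotypes with irradiation, the classical list was -0.133 thinned, -0.2081 in Ly6c2-bearing cells, -0.4195 without osteoclast-gene cells and -0.2262 with equal weights. The osteoclast list turned to -0.8809 in Ly6c2-bearing cells and was 0.1946 without osteoclast-gene cells, class II was 0.8723 in Ly6c2-bearing cells and 0.7905 with equal weights, and immediate early was 0.1095 without osteoclast-gene cells.

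In C1q-high cells with irradiation in controls, the classical list turned to 0.5346 thinned, 0.2236 without haemoglobin-bearing cells and 0.2518 with equal weights, and the resident list was -0.3205 with equal weights. In Vegfc-deleted mice the resident list was -0.3545 thinned, -1.079 without haemoglobin-bearing cells and -0.5378 with equal weights. The interferon list between genotypes with irradiation was 0.3567 thinned.

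Single genes turned direction as follows. Thinned, Mt1 was -0.1979 and Ctsl 0.09738 in C1q-low cells, and Gdf15 0.699, Ifi44 -0.0883 and Cxcl9 -1.198 between genotypes in irradiated C1q-high cells. With equal weights Gdf15 was 0.3363, Cxcl9 -0.07602 and Fn1 0.2518. In Ly6c2-bearing cells with irradiation in Vegfc-deleted mice, Ace was 0.4808 and Nrp2 -0.1967. Without haemoglobin-bearing cells, Fn1 was 2.71 and Mki67 1.947 with irradiation in C1q-high controls. The 8 and 20 C1q-high and 19 C1q-low cells of the non-irradiated libraries limit these comparisons, and alternatives under 10 counts were not read.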
